A study of Chromochloris zofingiensis with 6 samples.

Results

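The genes with very long coding sequences were examined in the green microalga Chromochloris zofingiensis, an oleaginous species, grown in the dark with or without the fluoroquinolone antibiotic levofloxacin. Members were chosen by length and level. The coding length of each gene ID was worked out from its count and its FPKM (fragments scaled to gene length in kilobases and to the reads assigned in the library), and IDs on Cz01 to Cz16 and Cz19 were kept from 7000 bases up where their mean over the 6 libraries was at least 1 CPM (the count scaled to 1000000 assigned reads). This gave 143 of the 15364 IDs in the count table, or 0.931% of them. All 143 lengths were multiples of 3, so they are coding lengths that leave out untranslated regions.

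Both groups were strain ATCC 30412, grown without light in shaken CZ-M1 medium, where glucose was the supplied carbon source, and RNA was taken on day 15. The control cultures had no levofloxacin (n = 3) and the treated cultures had 10 mg/L (n = 3). The question is which transcripts differ in level after growth with the antibiotic. The libraries held 28482776 to 36223195 counts, and the labels do not say whether replicates are separate cultures, so the p-values weigh a difference only against the spread among these libraries, part of which may be technical. Control libraries varied more among themselves than levofloxacin libraries over all genes (biological coefficient of variation 24.9% and 10.9%).

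Very long coding sequences encode large proteins, often built from many domains or repeats. In green algae such proteins include the heavy chains of dynein motors, modular polyketide synthases, large kinases of the TOR family and midasin, a motor protein of ribosome assembly. Which members encode such proteins is not known here, because the files do not pair IDs with gene names, and the role groups planned for them could not be formed. A long transcript yields more fragments per molecule than a short one, so levels are compared between genes per length, as FPKM. Between libraries they are mostly compared as CPM scaled with TMM factors. Library values given as FPKM or as shares of the counts are without these factors, whereas the edgeR log2 fold changes include them.

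The members ranged from 7029 to 55602 bases, with a median of 8658 bases and quartiles of 7682 and 10437 bases. Of these, 49 had under 8000 bases, 50 had 8000 to 10000, 34 had 10000 to 15000 and 10 had at least 15000. The longest coding sequence, 55602 bases on Cz02, was 2.84 times as long as the next, 19605 bases. The median over all tested IDs was 1086 bases. Members lay on all 17 prefixes that the rule allows, from 2 on Cz19 to 16 on Cz01.

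At the edge of the rule, the members nearest to the length limit had 7029 and 7032 bases, with log2 fold changes (levofloxacin over control) of -0.58 and -0.11. The IDs just outside it had 6984 and 6972 bases, with log2 fold changes of 0.12 and -1.53. Only the last of these was called (edgeR, Benjamini-Hochberg adjusted p = 0.036). The members nearest to the level limit had means of 1.44 and 1.48 CPM and log2 fold changes of -0.11 and 0.20. The long IDs that it left out numbered 3. The one at 0.802 CPM (9798 bases) had 48, 23 and 49 counts in control replicates 1, 2 and 3 and 9, 14 and 12 with levofloxacin. The one at 0.785 CPM (8262 bases) had 31, 21 and 73 counts in the controls and 20, 4 and 4 with levofloxacin. The one at 0.758 CPM (7044 bases) had 52, 16 and 44 counts in the controls and 15, 6 and 11 with levofloxacin. Each of the 3 thus had its lower counts mostly in the treated libraries, with log2 fold changes of -1.78, -2.08 and -1.81. Another 6 IDs of at least 7000 bases were left out by their prefix (Cz17, Cz18, unplaced or chloroplast sequence).

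Transcripts of the members were present at modest levels per length. The median of their mean FPKM was 11.8 (quartiles 3.85 and 19.6), against 21.0 (8.57 and 48.8) over the 14236 tested IDs, and 30 of the 143 lay above that median. Because of their length they still collected many reads, a median of 3467 counts per library against 754 over tested IDs. All 143 had at least 10 counts in every library, with a lowest count of 27, all 143 had at least 1 CPM in both groups, and all 143 passed the filter on low counts.

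The members took a similar share of the unscaled counts in both groups. It was 2.05% ± 0.18 of the counts in controls (SD, n = 3) and 1.95% ± 0.052 with levofloxacin, and the exact 95% binomial interval of each library's share, which covers counting error only, was at most 0.00512 percentage points to either side. The single shares were 1.85%, 2.21% and 2.09% in control replicates 1, 2 and 3, and 1.98%, 1.98% and 1.89% with levofloxacin. The control range thus enclosed the levofloxacin values, but only without scaling. The TMM factors were 0.912, 1.06 and 0.988 in control replicates 1, 2 and 3, and 1.03, 0.999 and 1.02 with levofloxacin. Divided by these factors, each treated share lay below each control share. Their summed FPKM, also without TMM factors, was 2202 ± 186 in controls and 2085 ± 53.1 with levofloxacin, and overlapped as well. The 10 members with the most counts held 28.6% of the members' counts, so these sums follow the abundant members.

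Member by member, long coding sequences were more often lower than higher with levofloxacin. Of the 143, 45 fell (31.5%), 7 rose (4.9%) and 91 did not pass (edgeR quasi-likelihood test over all tested IDs, Benjamini-Hochberg adjusted p under 0.05). Over all tested IDs 22.1% were called, 12.1% lower and 10.1% higher. The median log2 fold change was -0.17 over the members and 0.00 over all tested IDs, and it was negative in 102 members (71.3%) against 49.9% of tested IDs. In bulk cultures, fewer cells that express a gene and less RNA per cell cannot be told apart. That longer IDs are more often among those lower with levofloxacin was known when the members were chosen, so the direction is a description of this set.

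The changes were mostly under 2-fold. Of the 45, 15 changed by under 1.5-fold, 14 by 1.5- to 2-fold and 16 by at least 2-fold (11.2% of members, against 5.06% lower by at least 2-fold over all tested IDs). Of those 16, 2 fell by at least 4-fold. The 7 that rose had log2 fold changes of 0.36 to 0.76. No member was higher by 2-fold at any p, since 0.76 was the highest value in edgeR, while 2.51% of tested IDs were called higher by at least 2-fold. In DESeq2 and limma-voom the highest values were 0.76 and 0.77. Without control replicate 2 the highest was 1.12, and 1 member was then called higher by at least 2-fold, as were 4.03% of tested IDs.

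In 58 members (40.6%) each levofloxacin library lay below each control, against 22.9% of tested IDs. In 10 members (6.99%) each lay above, against 22.4%. In the other 75 the groups overlapped. All 52 called members were without overlap.

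**Figure D1:**
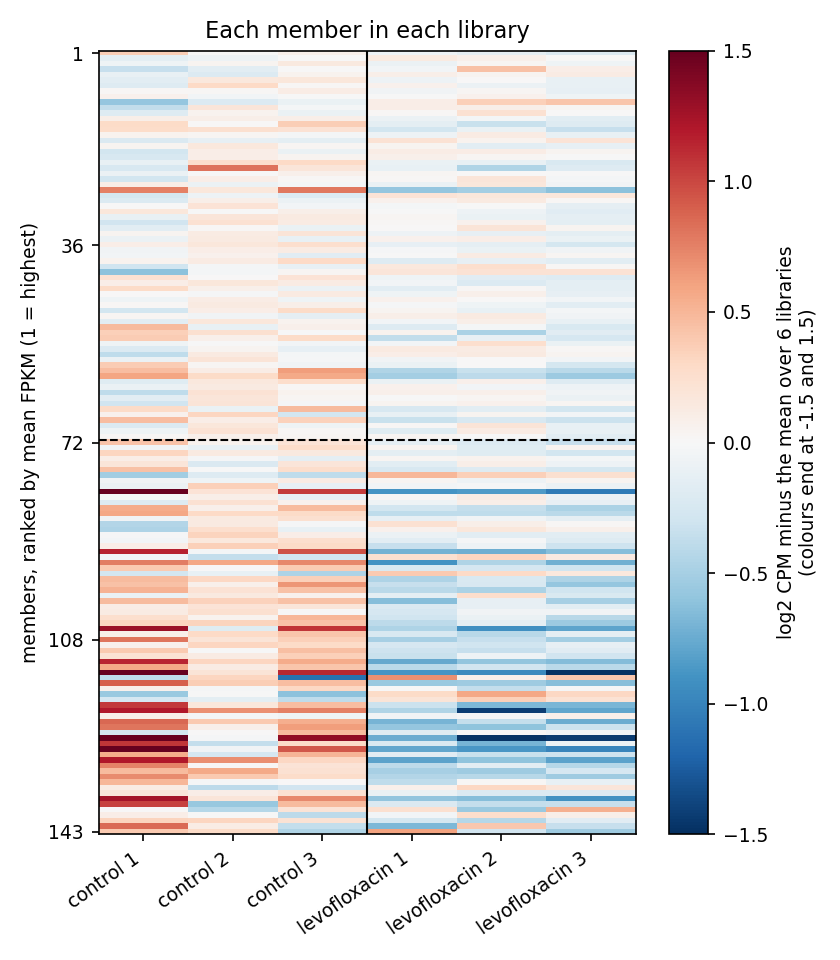
Heat map of the 143 members (rows, ordered by mean FPKM with the highest at the top) in the 6 libraries (columns). Colour is log2 CPM minus the member's mean over the 6 libraries, and the dashed line parts the 71 members with higher from the 72 with lower FPKM. Most rows above the line are pale, with exceptions such as the member of 10314 bases (log2 fold change -1.17), and the strongest red in the controls and blue with levofloxacin is below it, mainly in control replicates 1 and 3.

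The number of calls depended on the libraries. Without levofloxacin replicate 1 only 4 members were called lower, where 0.983% of tested IDs were called lower, and without levofloxacin replicate 3 also 4, where 0.962% were. Without levofloxacin replicate 2 the number was 19 (2.71% of tested IDs) and without control replicate 3 it was 21 (4.34%). Without control replicate 1 it was 50 (13.1% of tested IDs) and without control replicate 2 it was 49 (16.4%). The 3 members that were called lower in every one of these fits had 13077, 12843 and 9654 bases. In 31 of the 45 the adjusted p stayed under 0.1 in all 6 fits, and the highest that any of the 45 reached was 0.19. Each of these fits reuses most of the libraries that gave the 45 calls. The same counts over all tested IDs that fell were not worked out, so these do not set the members apart from other called IDs. On log2(FPKM + 1), limma called 28 members lower and 1 higher, where 8.56% of tested IDs were lower and 8.94% higher.

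**Figure D2:**
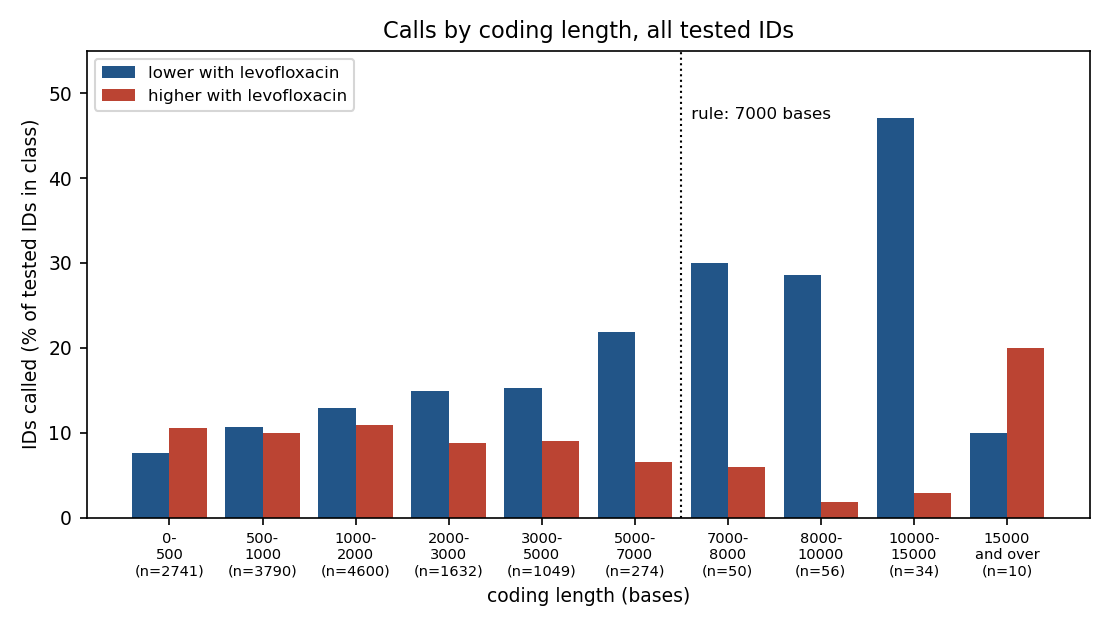
Share of all tested IDs called lower (blue) or higher (red) with levofloxacin in classes of coding length, in percent of the IDs tested in the class. The lower calls go from 7.55% under 500 bases to 47.1% at 10000 to 15000 bases and are 10% of the 10 longest, and the dotted line marks the limit of the rule.

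The share of lower calls did not begin at the limit of the rule. It was 7.55% of tested IDs under 500 bases, 12.9% at 1000 to 2000 bases, 15.3% at 3000 to 5000 bases and 21.9% at 5000 to 7000 bases, whereas the share of higher calls over these classes was 10.6%, 10.9%, 8.96% and 6.57%. Within the members it was 30.6% at 7000 to 8000 bases (15 of 49), 26% at 8000 to 10000 (13 of 50) and 47.1% at 10000 to 15000 (16 of 34). Of the 10 members of at least 15000 bases, 1 fell and 2 rose. Among the members themselves, length and log2 fold change had a Spearman correlation of 0.01 (across genes of the same libraries, as a description).

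The number of counts behind an ID bears on whether a change of a given size is called. The median standard error of the log2 fold change was 0.13 over the members and 0.16 over all tested IDs. Among the 3772 other tested IDs of the same prefixes with 1211 to 5986 mean counts, the quartiles of the members, 10.6% were lower and 12.6% higher, and the median log2 fold change was 0.04. The 71 members in that range of counts held 22 that fell (31%) and 3 that rose, with a median of -0.19. The 3772 other IDs were shorter than the members, so at the same count their FPKM was higher. Level per length was thus not matched in this comparison.

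Most of the members that fell had little transcript per length. This split was chosen after the values had been seen. Of the 72 members with a mean of 0.172 to 11.8 FPKM, 37 fell (51.4%) and 5 rose, with a median log2 fold change of -0.48. Of the 71 with 12.4 to 135 FPKM, 8 fell (11.3%) and 2 rose, with a median of -0.08. Over all tested IDs in those ranges of FPKM, 16% and 9.8% were lower and 6.38% and 12% higher. The rises were 6.94% and 2.82% of the members. Negative log2 fold changes made up 80.6% and 62% of the members, against 58.6% and 44.7% of tested IDs. The median standard error was 0.15 and 0.12 for the members, against 0.25 and 0.14, so a change of a given size was called more readily in members. The medians over all tested IDs were -0.12 and 0.05. The medians of members and of all tested IDs were thus farther apart at low than at high FPKM, which was not tested.

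By quartile of mean FPKM, the members that fell numbered 18 of 36 at 0.172 to 3.53 FPKM, 19 of 36 at 4.17 to 11.8, 4 of 35 at 12.4 to 19.3 and 4 of 36 at 19.8 to 135 FPKM. Over all tested IDs in the same ranges, 16.1%, 15.5%, 10.1% and 9.68% were lower, so the upper quartiles, at 11.4% and 11.1% of their members, lay near that share. The median log2 fold changes of the members in these quartiles were -0.63, -0.37, -0.09 and -0.05. Mean FPKM and log2 fold change had a Spearman correlation of 0.42 over the members and 0.12 over all tested IDs, as a description across genes of the same libraries. The control replicates also spread more at low FPKM, with a median SD of log2 CPM of 0.31, 0.17, 0.16 and 0.13 from the lowest to the highest quartile. With levofloxacin these were 0.14, 0.11, 0.08 and 0.08. All tested IDs in those ranges showed the same order at higher values in the controls, 0.44, 0.27, 0.21 and 0.19. Among the 72 members of lower FPKM, 18 were called lower without control replicate 3 (25%, against 5.49% of tested IDs in that range). Without levofloxacin replicate 1, 2 or 3 the number was 3, 15 and 3 (4.17%, 20.8% and 4.17%, against 1.09%, 3.14% and 1.15%). Among the 71 of higher FPKM, 3 were called lower without control replicate 3 (4.23%, against 3.73%). Without levofloxacin replicate 1, 2 or 3 the number was 1, 4 and 1 (1.41%, 5.63% and 1.41%, against 0.934%, 2.46% and 0.872%).

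**Figure D3:**
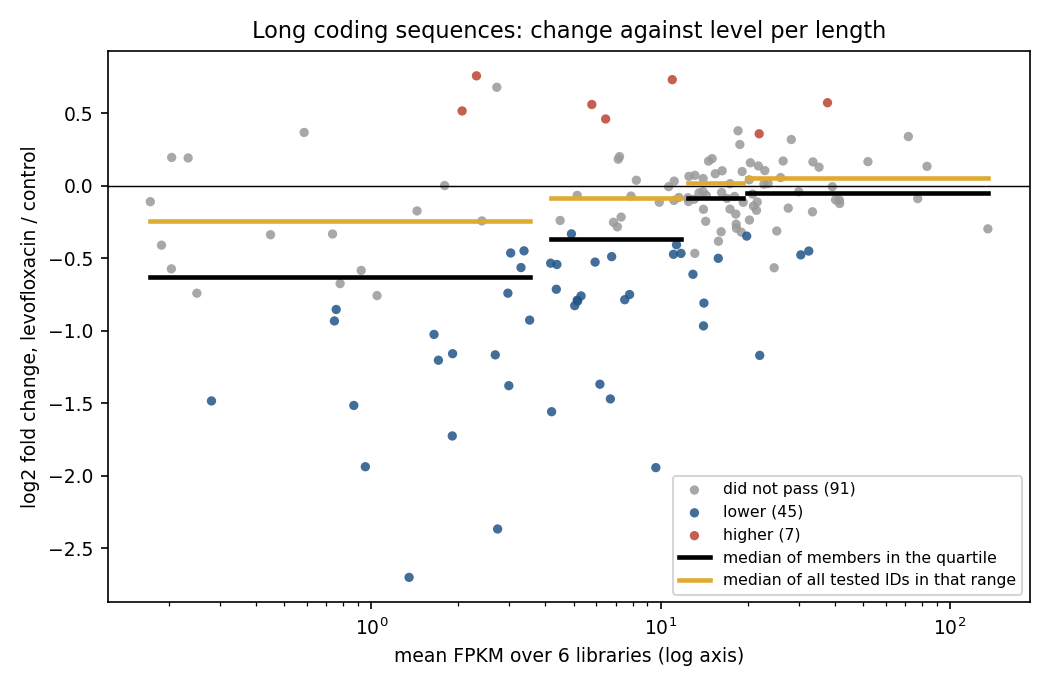
Log2 fold change (levofloxacin over control) of the 143 members against their mean FPKM over the 6 libraries, on a log axis. Points are coloured by call (45 lower, 7 higher, 91 that did not pass), and bars give the median of the members (black) and of all tested IDs (yellow) in each quartile of the members' FPKM, where the black bars run from -0.63 to -0.05.

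The libraries within a group did not weigh equally. Among the 45 members that fell, control replicate 1 was the highest control in 31, replicate 3 in 10 and replicate 2 in 4, and control replicate 2 was the lowest control in 34. Over all tested IDs that fell, control replicate 1 was the highest control in 62.8% and replicate 2 the lowest in 67.9%. Relative to the mean over the 6 libraries, the median log2 CPM of the 45 was 0.52, 0.17 and 0.44 in control replicates 1, 2 and 3 and -0.41, -0.35 and -0.46 with levofloxacin. Control replicate 2 was thus nearest to the treated libraries.

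Set against single controls, the levofloxacin mean of the members was lower than each of them. The median log2 difference over the members was -0.10 against control replicate 1, -0.21 against replicate 2 and -0.19 against replicate 3, where over all tested IDs it was 0.02, -0.02 and 0.00. For the 72 members with lower FPKM it was -0.63, -0.34 and -0.53. For the 71 with higher FPKM it was 0.03, -0.14 and -0.06, so its sign depended on the control.

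The levofloxacin libraries also differed among themselves over the members. From the mean of that group the members' median deviated by 0.00 in replicate 1, 0.05 in replicate 2 and -0.05 in replicate 3, against 0.00, 0.01 and 0.00 over all tested IDs. Of the 45 that fell, replicate 3 was the lowest treated library in 23 and replicate 2 the highest in 25, or 51.1% and 55.6%, against 38.8% and 36.4% of all tested IDs that fell. The part of such differences between libraries in the calls was not tested.

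**Figure D4:**
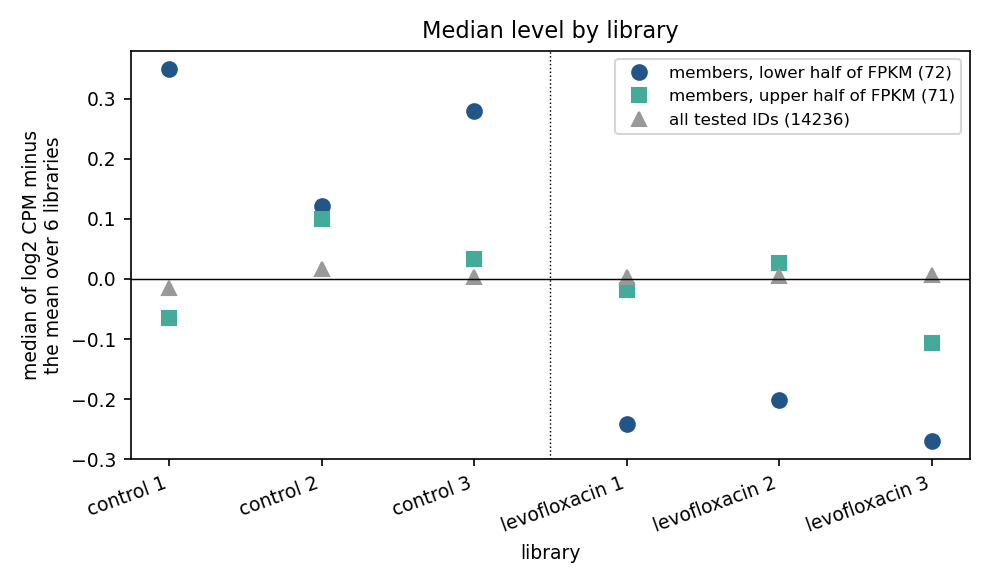
Median over members of log2 CPM minus the mean over the 6 libraries, for the 72 members with lower FPKM (blue), the 71 with higher FPKM (green) and all 14236 tested IDs (grey), by library. The blue points lie at 0.35, 0.12 and 0.28 in the controls and between -0.27 and -0.20 with levofloxacin, and the green points lie between -0.11 and 0.10 in all libraries.

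The largest decrease among members with a mean of at least 5 CPM was that of Cz01g22200, a coding sequence of 12183 bases. It stood at 52.9, 10.2 and 26.1 CPM in control replicates 1, 2 and 3 and at 6.17, 3.70 and 3.82 CPM with levofloxacin. All controls lay above all treated libraries, and control replicate 1 was the highest by far. The log2 fold change was -2.70 ± 0.55 (SE; edgeR, adjusted p = 0.017). It was -1.99 without control replicate 1, and the adjusted p was 0.051 to 0.079 when control replicate 3 or any 1 treated library was left out. On log2(FPKM + 1), a scale that understates the change of low genes, the value was -1.16.

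The next was Cz04g30250, with 7575 bases, at 58.7, 16.8 and 32.2 CPM in the controls and 7.98, 7.58 and 5.26 CPM with levofloxacin. The controls again ordered as replicate 1, 3 and 2, and the lowest of them was above the treated libraries. Its log2 fold change was -2.37 ± 0.43 (SE; edgeR, adjusted p = 0.013), and the adjusted p was 0.054 to 0.063 when any 1 treated library was left out. On log2(FPKM + 1) the value was -1.43.

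Some other decreases rested on controls that were closer to each other. The members described here without an ID were picked after their values had been seen. One of 13077 bases on Cz15 had 124, 109 and 120 CPM in the controls and 39.0, 53.0 and 44.2 CPM with levofloxacin. The controls lay within 15 CPM of each other and more than 2-fold above the treated libraries. Its log2 fold change was -1.37 ± 0.14 (SE; edgeR, adjusted p = 0.0040). It was called in every fit with 1 library left out, with adjusted p of at most 0.034.

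A member of 9654 bases on Cz02 had 194, 158 and 191 CPM in the controls and 91.1, 98.4 and 88.5 CPM with levofloxacin. Here too each control was above each treated library, and the log2 fold change was -0.97 ± 0.12 (SE; edgeR, adjusted p = 0.0062). It was likewise called in all 6 fits. The member with the highest FPKM among the 16 with decreases of 2-fold or more had 10314 bases and lies on Cz06. Its FPKM was 31.4, 24.1 and 34.8 in the controls and 14.0, 14.3 and 13.5 with levofloxacin. The treated libraries were nearly level while the controls differed, and the log2 fold change was -1.17 ± 0.17 (SE, edgeR, adjusted p = 0.0085). Without levofloxacin replicate 1 or 3 the edgeR adjusted p of this member was 0.052 in both fits, so it was not called there.

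The largest increases were smaller than these decreases. Cz15g22100, with 10401 bases, stood at 15.5, 22.7 and 14.9 CPM in the controls and 27.7, 34.0 and 28.2 CPM with levofloxacin. All treated libraries were above all controls, and replicate 2 was the highest in both groups. Its log2 fold change was 0.76 ± 0.19 (SE; edgeR, adjusted p = 0.028). The adjusted p was 0.060 in limma on log2(FPKM + 1), and 0.076 to 0.10 in edgeR when control replicate 3 or any 1 treated library was left out.

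Cz01g25050, the third longest member with 19374 bases, stood at 142, 178 and 156 CPM in the controls and 288, 261 and 242 CPM with levofloxacin. The groups were far apart relative to their spread, with means of 159 ± 17.9 and 264 ± 23.5 CPM (SD, n = 3). Its log2 fold change was 0.73 ± 0.13 (SE; edgeR, adjusted p = 0.011), and without levofloxacin replicate 1 or 3 the adjusted p was 0.059 and 0.052.

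**Figure D5:**
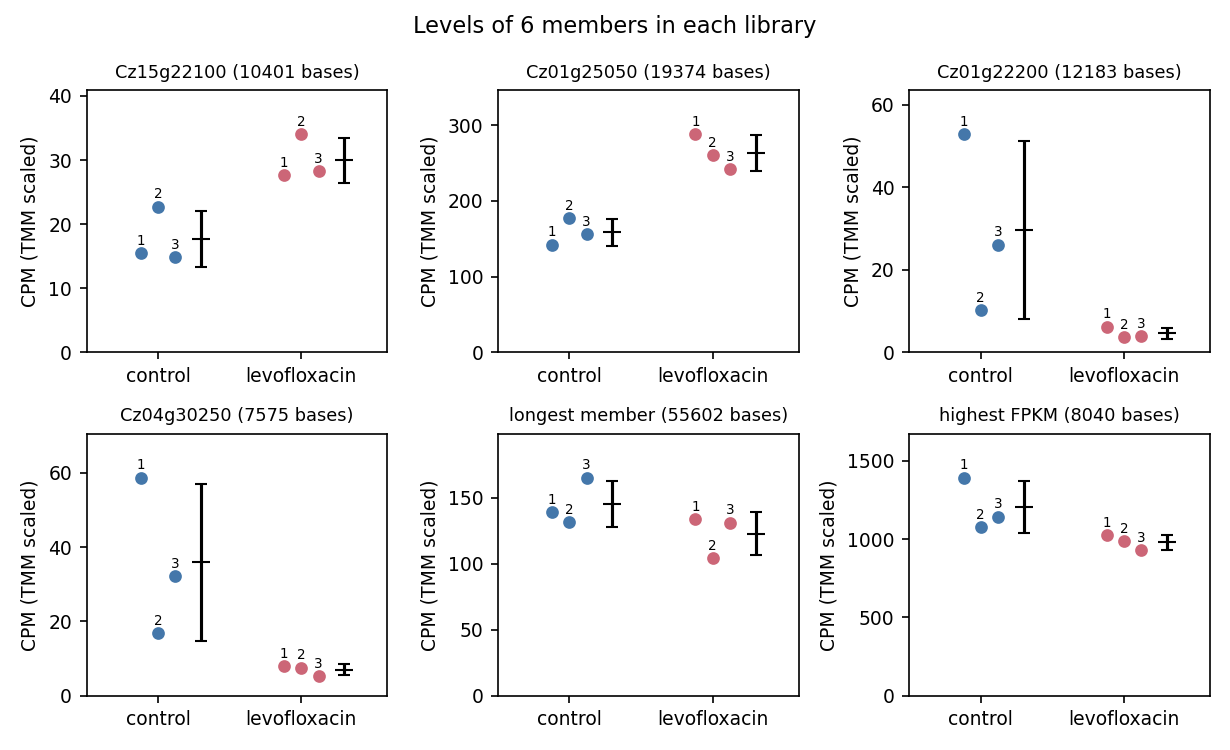
CPM (TMM scaled) of 6 members in each library, with the replicate number above each point and the mean ± SD (n = 3) in black. The members with increases (Cz15g22100 and Cz01g25050) and decreases (Cz01g22200 and Cz04g30250) show no overlap between the groups, control replicate 1 is the highest control in both decreases, and the groups of the longest member overlap.

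The longest member, of 55602 bases, had 139, 132 and 165 CPM in the controls and 134, 104 and 131 CPM with levofloxacin. The groups overlapped, and the log2 fold change was -0.24 ± 0.14 (SE; edgeR, adjusted p = 0.24), which did not pass. Per length it was a low transcript, at 2.57 ± 0.34 FPKM in controls and 2.25 ± 0.33 FPKM with levofloxacin (SD, n = 3). Of the next 9 in length, from 19605 to 15048 bases, Cz01g25050 and a member of 16968 bases rose and one of 15279 bases fell. The member of 16968 bases had 1.54, 1.93 and 1.53 FPKM in the controls and 2.38, 2.59 and 2.39 FPKM with levofloxacin, without overlap. Its log2 fold change was 0.52 ± 0.11 (SE, edgeR, adjusted p = 0.018). The edgeR adjusted p was 0.052 to 0.078 when control replicate 3 or any 1 treated library was left out.

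The 3 most abundant members per length did not pass the test. The highest FPKM was that of a member of 8040 bases on Cz05, at 158, 141 and 141 FPKM in the controls and 131, 123 and 118 FPKM with levofloxacin. Every treated library was below every control, but the log2 fold change was -0.30 ± 0.14 (SE; edgeR, adjusted p = 0.15), which did not pass. The next in order were members of 8517 bases (78.2 ± 8.32 FPKM in controls and 88.5 ± 4.70 with levofloxacin, SD, n = 3) and of 10044 bases (78.7 ± 9.70 and 76.2 ± 2.16 FPKM). In the controls these levels differed from each other by less than the replicate spread, and with levofloxacin by more. Neither member passed the test (edgeR, adjusted p = 0.40 and 0.60).

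Members that are next to each other in the order of IDs numbered 2 pairs. On Cz08 the neighbours of 8238 and 12843 bases both fell. The shorter had 1.59, 1.31 and 0.933 FPKM in the controls and 0.447, 0.500 and 0.443 FPKM with levofloxacin. The longer had 4.23, 3.39 and 3.38 FPKM in the controls and 1.74, 1.72 and 1.64 FPKM with levofloxacin. In both, replicate 1 was the highest control and the treated libraries were nearly equal, and the log2 fold changes were -1.52 ± 0.24 and -1.17 ± 0.15 (SE; edgeR, adjusted p = 0.0097 and 0.0069). Whether 2 such models are pieces of 1 gene or share reads was not tested. On Cz03 the neighbours of 10905 and 12636 bases differed in level, with means of 33.6 and 0.780 FPKM, and neither passed (edgeR, adjusted p = 0.34 and 0.056).

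Members that fell were spread over the ID prefixes. At least 1 lay on 16 of the 17 prefixes. None of the 8 members on Cz09 fell, against 5 of 8 on Cz10 and 4 of 7 on both Cz04 and Cz08. Of all tested IDs of these prefixes, 13%, 12.2%, 12% and 11.4% were lower. On the prefixes with the most members, 7 of 16 fell on Cz01, 2 of 15 on Cz02 and 3 of 12 on Cz07, where 11.2%, 10.4% and 12.7% of all tested IDs of the prefix were lower. Over the 17 prefixes that share ranged from 9.67% to 15.2%. In length the members that fell had a median of 8835 bases and those that did not pass 8595 bases.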

How the data were processed

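RNA-seq was deposited as a table of whole-number counts and a table of FPKM, each with 1 column for every library. Per the submitters' processing notes the tools were HISAT2 2.0.6 and HTSeq 0.6.1. The sources used here do not give the build, the annotation or whether counting used strand, so overlapping, antisense or near-identical genes cannot be told apart. The FPKM values deposited by the authors equal the counts over 1 length per ID, to within 0.00282% across libraries; their totals exceed those of the counts by 0.00941%, which was removed before lengths were rounded. 5 IDs of the FPKM table have no counts here. Members, lists and tests were chosen with earlier results of these data known.

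The tests on counts ran in edgeR 4.0.16 under R 4.3.3 (filterByExpr, 1128 of 15364 IDs left out, TMM, quasi-likelihood F test over 6 libraries and 14236 IDs). This procedure was tested on simulated data whose changes were larger than nearly all of those in the members, so smaller changes were not covered. Standard errors are the fold change over the square root of F; log2 CPM has a prior count of 2. Alternatives were DESeq2 1.42.0, limma 3.58.1 (voom, and log2(FPKM + 1) or log2(FPKM + 0.1)), other scalings, filters and member rules, a replicate block, and each library left out. IDs were named by rule: the 2 highest and 2 lowest log2 fold changes among called members with at least 5 CPM and no overlap of groups. Replicates differed beyond counting noise (chi-square per degree of freedom 9.75 to 201).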

Additional observations from a re-analysis of the deposited data

How the results depend on the processing

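The direction of the members' median and the excess of lower over higher calls were the same under every alternative run. RLE and upper-quartile scaling, both other filters, DESeq2 (48 lower, 8 higher), limma-voom, all prefixes, and other limits on the level (5 CPM, any CPM, 1 FPKM) left each count within 1.5 times. In DESeq2 and limma-voom 15% and 9.95% of tested IDs were lower. With library totals the median was -0.13 in place of -0.17, and 36 members were lower (9.83% of tested IDs). On log2(FPKM + 1) and on log2(FPKM + 0.1), 29 members changed, 28 lower and 1 higher, where 8.56% and 8.76% of tested IDs were lower. Of those lower, 23 were among the 72 with lower and 5 among the 71 with higher FPKM. The medians were -0.10 and -0.12, and 8 changed by at least 2-fold on the first scale. At an adjusted p under 0.01 edgeR called 12 members, 12 lower and 0 higher, where 1.73% and 1.31% of tested IDs were. Of the 12, 10 were among the 72 with lower and 2 among the 71 with higher FPKM, and 8 fell by at least 2-fold. The shares of tested IDs for these parts were not worked out at that threshold. At that threshold limma-voom called 9 lower and 0 higher (1.12% and 1.1% of tested IDs), and DESeq2 39 lower and 6 higher (9.68% and 7.62%). At an unadjusted p under 0.05 edgeR, limma-voom and DESeq2 gave 9, 10 and 12 higher (18.5%, 19% and 17.6% of tested IDs). Lower at that p were 56, 55 and 59 (20.5%, 19.2% and 19.8% of tested IDs). From 6000 bases up 83 members changed, 68 lower and 15 higher; from 8000 bases 34 changed, 4 higher and 9 by at least 2-fold; from 10000 bases 20 changed, 17 lower and 3 higher, 6 by at least 2-fold, with a median of -0.28.

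With 1 library left out, edgeR called 4 to 57 members, where 1.67% to 30.7% of tested IDs were called. Lower were 4 to 50 members (0.962% to 16.4% of tested IDs) and higher 0 to 8, and 2 to 21 changed by at least 2-fold. For higher calls and for changes of at least 2-fold, the share of tested IDs was not worked out over all these fits. Of the members called lower, 3 to 40 were among the 72 with lower and 1 to 10 among the 71 with higher FPKM. Without control replicate 1 or 2, 40 of the 72 were lower (55.6%, against 14.5% and 21.3% of tested IDs in that range). Of the 71, 10 and 9 were lower in these fits (14.1% and 12.7%, against 12.3% and 13%). The median log2 fold change of the members was -0.22 to -0.14. In the fits with 0 higher calls, without levofloxacin replicate 1 or 3, 8 members were higher at an unadjusted p under 0.05. The share of all tested IDs higher at that p was not worked out for these fits. The log2 ratio of the members' summed level without TMM factors, -0.07, was -0.14 to -0.02 with a library left out. With the replicate number as a block 45 members changed, 39 lower and 6 higher, where 10.7% of tested IDs were lower. Correlations of deviations between same-numbered libraries were 0.16, 0.05 and 0.04, and 4 of 6 libraries correlated best with their own number. The labels do not say that the numbers pair the samples. Having 3 libraries in each group, and controls that spread widely, limits the precision.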
